A study of Homo sapiens with 4 samples.

Results

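Nuclear-encoded genes of oxidative phosphorylation (OXPHOS) were followed at their promoters in an ATAC-seq experiment on MORC2 overexpression. The members were the protein-coding nuclear genes whose symbols begin with NDUFA, NDUFB, NDUFC, NDUFS, NDUFV, UQCR or ATP5, the COX4 to COX8 subunits of cytochrome c oxidase, SDHA, SDHB, SDHC, SDHD and CYC1. This rule used symbols and no measured value, and it took 95 of the 28775 promoters in the count table. By role they were 37 complex I subunits, 8 complex I assembly factors (the NDUFAF genes), 4 complex II subunits, 10 complex III genes, 17 complex IV genes and 19 ATP synthase genes. NDUFA4 carries the symbol COXFA4 in the gene table used for names and so fell outside the rule. Its values are given with the paralogue pairs.

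ATAC-seq reads out open chromatin, because the Tn5 transposase inserts adapters where DNA is accessible. HEK293T, a transformed human kidney line expressing SV40 large T antigen, was used wild type for MORC2 in both groups. Overexpression libraries (n = 2) came from cells transfected with MORC2, an ATPase that binds and compacts DNA, as an meGFP fusion on a pBacMam plasmid. Control libraries (n = 2) came from cells that received lipofectamine, and the labels name no empty plasmid. A plasmid effect and a MORC2 effect therefore cannot be told apart. The labels do not say that replicates came from separate cultures, so p-values refer to the spread between these libraries. In the edgeR test that spread followed abundance and was not fitted for each promoter.

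OXPHOS couples the transfer of electrons along the inner mitochondrial membrane to ATP synthesis. Complex I takes electrons from NADH and complex II from succinate, both pass them to coenzyme Q, complex III hands them to cytochrome c, complex IV reduces oxygen, and the proton gradient built on the way drives ATP synthase. Most subunits are encoded in the nucleus and a small core is encoded by mitochondrial DNA, so that assembled complexes need both genomes. NRF1 and GABPA (an ETS factor), together with YY1 and the nuclear receptor ESRRA, are well-known activators of the nuclear set.

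The promoter sequences of this set are shown first, since several carry the letters that these activators recognise. RefSeq windows on GRCh38.p14, from 250 bases before to 50 bases after each start, were at hand for 77 members (95 windows). The letters searched, on both strands, were GCGCA and GCGC separated by 1 base for NRF1, CCGGAAG for ETS factors, AAGATGGCG for YY1, GGGCGG for SP1, CCAAT for NF-Y and TGACGTCA for CREB. Hits of 1 motif at the same bases on both strands counted once, and different motifs may overlap. A match is a description of the letters and not of a bound site.

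NRF1 letters stood in 18 of the 95 member windows (18.95%), against 5.784% of all 35116 promoter windows and 8.028% of the 19681 windows of tested protein-coding genes. ETS letters stood in 26.32% of member windows, against 10.26% of all windows and 13.9% of the protein-coding ones. YY1 letters stood in 12 member windows (12.63%), against 1.748% and 2.668%. At least 1 of these 3 motifs was present in 45 member windows (47.37%), against 16.12% of all windows and 22.08% of the protein-coding ones. Since most members are highly accessible, windows of protein-coding genes in the upper 2 of 4 bins of abundance were also counted. There the shares were 10.71% for NRF1, 17.69% for ETS, 3.541% for YY1 and 28.33% for any of the 3. SP1 letters were found in 61.05% of member windows, against 44.95% of all windows, 60.75% of the protein-coding ones and 70.27% of those in the upper bins. NF-Y letters were found in 36.84%, against 34.61%, 34.05% and 36.46%. CREB letters were found in 5 member windows (5.263%), against 1.848%, 2.419% and 2.945%. By role, at least 1 of the NRF1, ETS and YY1 motifs was found in all 3 complex II windows, in 6 of 7 complex III windows (85.71%) and in 37.5% of the 16 complex IV windows. The shares were 55.56% of 18 ATP synthase windows, 41.03% of 39 complex I subunit windows and 33.33% of 12 assembly factor windows.

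The stretches below are written 5′ to 3′ in the direction of transcription, with the motif letters of NRF1, ETS, YY1, SP1, NF-Y or CREB named for each in capitals; a match on the other strand appears as its reverse complement. SDHA, the catalytic flavoprotein of complex II, is shown because its window repeats the NRF1 letters 4 times at a constant spacing of 49 bases, the first beginning at -166 relative to the start. NDUFB4 and UQCR11 also repeat NRF1 letters, SDHB and ATP5PF combine ETS and YY1 letters, and NDUFV3 and ATP5F1C are the members with the smallest p-values in the comparison. COX6A1 and COX6A2 are the broad and the muscle form of 1 complex IV subunit.
SDHA, plus strand, chr5:218140-218319, NRF1 in capitals: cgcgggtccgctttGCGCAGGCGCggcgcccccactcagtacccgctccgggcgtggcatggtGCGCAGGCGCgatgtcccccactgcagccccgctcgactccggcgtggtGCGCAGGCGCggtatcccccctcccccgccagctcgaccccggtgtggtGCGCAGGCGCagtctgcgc
NDUFB4, plus strand, chr3:120596166-120596340, NRF1 in capitals: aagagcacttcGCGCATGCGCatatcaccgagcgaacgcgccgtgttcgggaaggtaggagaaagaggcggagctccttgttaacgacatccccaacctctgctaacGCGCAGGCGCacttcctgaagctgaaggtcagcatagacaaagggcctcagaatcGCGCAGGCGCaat
UQCR11, minus strand, chr19:1605463-1605592, ETS then NRF1 in capitals: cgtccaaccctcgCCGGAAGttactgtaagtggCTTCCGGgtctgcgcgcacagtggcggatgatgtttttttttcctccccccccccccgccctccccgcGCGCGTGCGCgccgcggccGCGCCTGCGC
SDHB, minus strand, chr1:17054003-17054172, ETS, CREB and YY1 in capitals: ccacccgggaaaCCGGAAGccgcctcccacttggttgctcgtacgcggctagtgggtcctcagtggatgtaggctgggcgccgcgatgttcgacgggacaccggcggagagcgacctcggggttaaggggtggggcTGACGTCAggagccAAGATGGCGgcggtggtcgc
ATP5PF, minus strand, chr21:25735055-25735144, YY1 then ETS in capitals: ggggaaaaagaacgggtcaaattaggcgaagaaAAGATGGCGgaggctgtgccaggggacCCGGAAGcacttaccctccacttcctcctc
ATP5F1C, plus strand, chr10:7788077-7788176, NRF1 in capitals: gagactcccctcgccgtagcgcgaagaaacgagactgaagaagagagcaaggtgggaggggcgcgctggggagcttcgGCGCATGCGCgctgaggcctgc
NDUFV3, plus strand, chr21:42893159-42893308, SP1, NF-Y and SP1 in capitals: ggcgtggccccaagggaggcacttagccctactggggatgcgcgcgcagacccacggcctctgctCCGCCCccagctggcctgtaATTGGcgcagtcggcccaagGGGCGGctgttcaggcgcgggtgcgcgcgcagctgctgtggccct
COX6A1, plus strand, chr12:120437993-120438112, SP1, NF-Y and ETS in capitals: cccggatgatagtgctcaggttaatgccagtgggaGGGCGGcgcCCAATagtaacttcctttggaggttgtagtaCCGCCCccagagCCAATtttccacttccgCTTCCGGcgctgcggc
COX6A2, minus strand, chr16:31428361-31428480, NF-Y in capitals: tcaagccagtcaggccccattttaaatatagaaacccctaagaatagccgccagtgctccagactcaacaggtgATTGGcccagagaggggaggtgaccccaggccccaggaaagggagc

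Depth differed between the groups, and this set how precisely a member could be measured. Promoter counts summed to 3734519 to 10255182 per library, and mitochondrial promoters took 51.9% and 55.6% of them in control against 74.7% and 73.8% in overexpression. A median member was counted 244 and 175 times in control but 89 and 47 times after overexpression, which leaves overexpression replicate 2 the least precise. VIM, active in HEK293T, lay at percentile 98.3 of control accessibility, while the hepatocyte gene ALB (4.03) and the leukocyte gene PTPRC (8.21) were near the bottom. The kidney and neuronal genes PAX2 (41.8), LHX1 (60.6) and NEFM (49.9) were intermediate, and so were INS (39.1) and MYH6 (38.5), which these cells should not use, with CD3E lower (15.6). The MORC2 promoter had 257 and 162 counts in control, then 87 and 42, which does not check the overexpression, because a count at the genomic promoter does not measure a plasmid. In pools of cells, fewer cells with an open promoter and less opening per cell cannot be told apart.

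OXPHOS promoters were among the more accessible promoters of these cells. Levels are given as TMM-scaled CPM, in which a promoter count is divided by the scaled library total. The median member had 17.4 CPM in control, against 7.09 over all promoters and 12.6 over nuclear protein-coding promoters, and the median percentile of members was 70.4. Medians by role were 27.2 CPM for ATP synthase, 23.5 for complex III, 22.0 for complex I assembly factors, 16.4 for complex II, 16.2 for complex I subunits and 6.43 for complex IV. Complex IV holds most of the tissue-restricted paralogues, which are described as pairs further on. The 95 promoters together held 0.526% ± 0.00192 (SD, n = 2) of nuclear promoter counts in control and 0.520% ± 0.000921 in overexpression. Both overexpression libraries lay below both controls, but 2 libraries against 2 cannot reach a p below 0.333 in a two-sided exact permutation test.

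**Figure D1:**
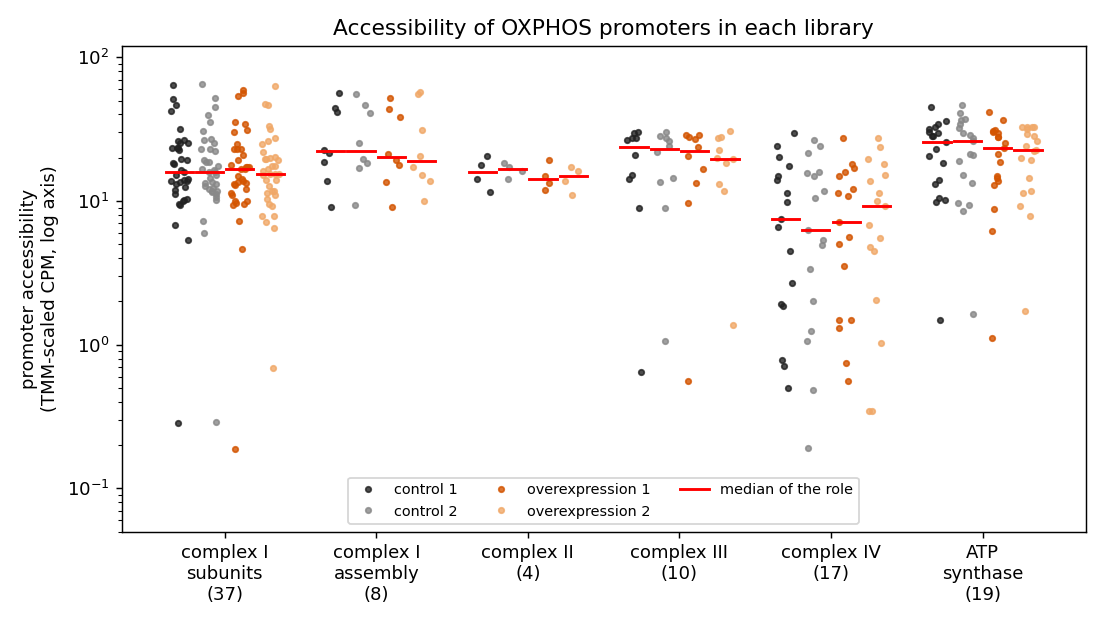
Promoter accessibility (TMM-scaled CPM, log axis) of all 95 OXPHOS promoters by role, 1 point per promoter and library, with the number of promoters under each role and a red line at the median of each library. The 4 libraries lie side by side within every role, and complex IV spreads lowest, with promoters below 1 CPM.

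The highest member was NDUFA11, an accessory subunit of complex I, with 906, 679, 316 and 185 counts, given here and later in the order control 1, control 2, overexpression 1, overexpression 2 (64.9 CPM in control, percentile 99.3). NDUFAF3, a complex I assembly factor, followed with 787, 577, 280 and 168 counts (55.8 CPM). NDUFB2, a membrane-arm subunit, had 718, 545, 302 and 137 counts (51.8 CPM). NDUFA11 and NDUFAF3 share their windows with the divergent genes VMAC and DALRD3. At the bottom stood NDUFA5 with 4, 3, 1 and 2 counts and COX7A2 with 11, 11, 4 and 3. Both encode broadly used subunits, have more than 1 start in RefSeq, and which start was counted is not given in the sources used here, so their low counts are uncertain as a measure of the gene.

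No OXPHOS promoter passed the test for a difference between overexpression and control. Of the 95 members, 90 had enough counts to be tested; the others were COX7A2, COX7B2, COX8C, NDUFA5 and UQCRHL. The edgeR quasi-likelihood test with Benjamini-Hochberg adjustment over all 23407 promoters called 0 of 90 at an adjusted p under 0.05, where 2.47% of all promoters were called (1.16% as higher and 1.3% as lower). DESeq2 and limma-voom also called 0. When libraries were scaled by their totals, mitochondrial counts included, 87 of the 90 were called lower, but so were 16268 promoters in all and the median over all promoters moved to -0.78. Changes here are therefore stated relative to the other promoters. At an unadjusted p under 0.05 there were 9 members (10.0%, against 17.2% of all promoters), of which 8 were lower in overexpression (8.89%, against 8.57%) and 1 was higher (1.11%, against 8.66%). The 2 groups did not overlap in 37 members (41.1%, against 49.7%). Overexpression lay below control in 28 (31.1%, against 24.9%) and above it in 9 (10.0%, against 24.8%). Over all promoters these shares changed with abundance, and 68 of the 90 members lay in the upper 2 bins of abundance. In the highest bin 49.2% of all promoters lay below and 7.01% above. In the next lower bin these were 1789 and 799 of 5851. At an unadjusted p under 0.05, 22.3% of the highest bin were lower and 1.90% higher. Of the 68 members, 24 lay below without overlap and 6 above. Members were not tested against promoters of like abundance.

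The differences were small and, for most members, bounded. The median log2 fold change over the 90 members was -0.07 (range -0.72 to 0.50), beside 0.0099 over all promoters tested, and turned to 0.01 beside 0.09 with upper quartile scaling. In the reported fit 61 members were negative and 29 positive, and with upper quartile scaling 41 were negative. Of the 577 calls over all promoters 305 were lower, against 109 of 493 with that scaling. The 95% interval of the fold change lay within 1 log2 unit of 0 for 86 members and within 0.5 for 63, and the 4 with wider intervals were COX6A2, ATP5MGL, COX7A1 and COX4I2, all of few counts. Fold changes ran with abundance. When promoters were divided into 4 equal bins of abundance, the median over all promoters ran from 0.38 in the lowest bin through 0.13 and -0.06 to -0.12 in the highest, and 68 of the 90 members lay in the upper 2 bins. The member medians were -0.22 (3 members), 0.01 (19 members), -0.07 and -0.08 from the lowest to the highest bin, so that they were below those of all promoters in the first 3 bins and above in the last. In the highest bin 47 of all 5852 promoters were called higher and 255 lower, and none of the 34 members was called. The 47 include the 13 protein-coding genes of mitochondrial DNA, and how many of the rest were nuclear was not counted. Over all bins 272 promoters were called higher, of which 235 were nuclear and the others mitochondrial. Mitochondrial DNA had 37 promoters in all.

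**Figure D2:**
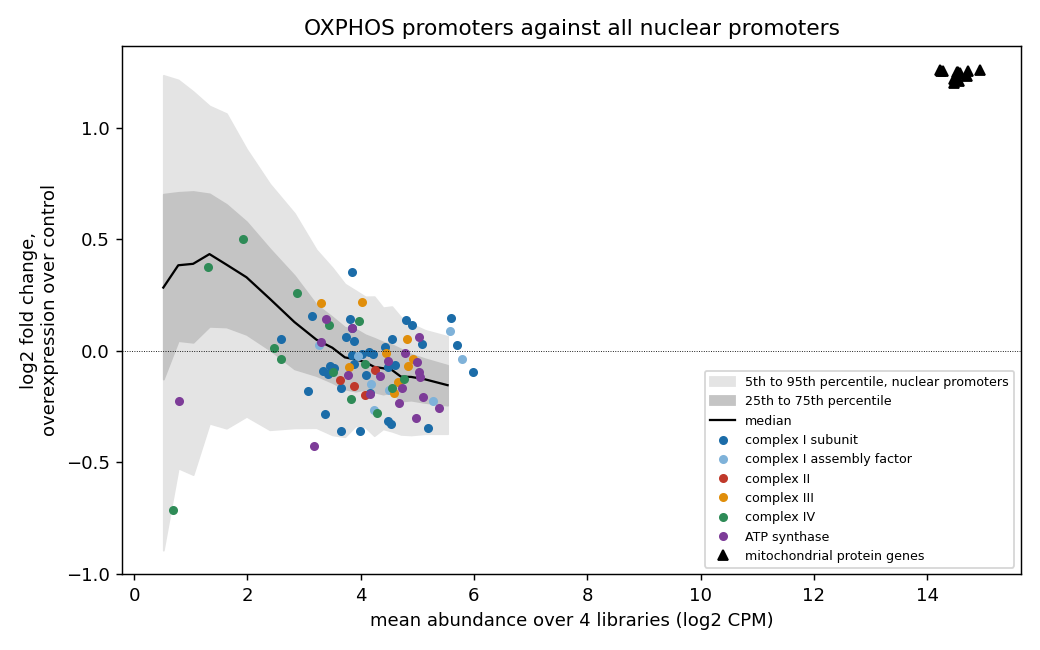
Log2 fold change (overexpression over control) against mean abundance (log2 CPM) for 90 OXPHOS promoters, coloured by role, over the percentiles of all nuclear promoters in 20 bins of abundance; triangles are the 13 protein-coding genes of mitochondrial DNA. Most members lie above 3 on the log2 CPM axis, around the median of nuclear promoters of like abundance, and the mitochondrial genes sit apart at 1.20 to 1.26.

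Complex I subunits held the member nearest to the threshold. NDUFV3, an accessory subunit of the NADH-oxidising module, was counted 594, 411, 189 and 80 times. On the CPM scale these were 42.3 and 39.5 against 35.2 and 27.4, so the groups did not overlap and the lower value came from the shallower library. Its difference came to -0.35 ± 0.117 (log2, SE), and the adjusted p of the edgeR test to 0.0801. NDUFS1, which carries iron-sulfur clusters of the same module, had 25.5 and 25.4 CPM in control and 20.9 and 19.2 in overexpression (log2 fold change -0.33 ± 0.137, adjusted p = 0.177). NDUFS5, an accessory subunit, was the 1 member with an unadjusted p under 0.05 and a positive sign, with 190, 120, 89 and 45 counts (log2 fold change 0.35 ± 0.163, adjusted p = 0.230). NDUFB10, a membrane-arm subunit, had a log2 fold change of 0.15 with groups that did not overlap and an adjusted p of 0.481.

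Among the remaining complex I subunits, NDUFB4, NDUFC1 and NDUFA12 had an unadjusted p under 0.05. NDUFB4, a membrane-arm subunit whose window with 3 NRF1 matches is printed above, had 253, 175, 80 and 33 counts and a log2 fold change of -0.36. NDUFC1 had 356, 240, 103 and 59 counts (-0.31), and NDUFA12 had 194, 140, 54 and 34 (-0.36). In all 3 both overexpression libraries lay below both controls after scaling, with adjusted p-values of 0.204 to 0.280. Of the catalytic core, NDUFV1, which binds NADH and FMN, had 230, 193, 92 and 51 counts and a log2 fold change of -0.01, and NDUFS8 had 372, 318, 162 and 92 counts and 0.12. Over the 36 tested subunits the median was -0.04, with 22 negative and 14 positive, and it turned positive after upper quartile (0.04) or loess (0.02) scaling, with a filter at a mean of 50 counts (0.01) and without control replicate 2 (0.01). Split by name, the medians were 0.0074 for 12 NDUFA, -0.06 for 11 NDUFB, -0.19 for 2 NDUFC, -0.04 for 8 NDUFS and -0.28 for the 3 NDUFV promoters.

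The 8 complex I assembly factors gave a median log2 fold change of -0.09, with 6 negative. Medians of the assembly factors, of complex II and of ATP synthase were negative in the reported fit and in all 16 refits with another scaling, filter, test or set of libraries. The assembly factor median ran from -0.16 without control replicate 1 to -0.01 with upper quartile scaling, leaving aside library totals. On the same terms complex II ran from -0.22 to -0.06 and ATP synthase from -0.21 to -0.03. Over all promoters the reported fit also gave negative medians in the upper 2 bins of abundance, -0.06 and -0.12. After loess scaling on abundance the medians were -0.06 for assembly factors, -0.13 for complex II and -0.04 for ATP synthase. NDUFAF6 had 586, 429, 205 and 91 counts (log2 fold change -0.22, adjusted p = 0.291) and NDUFAF4 had 305, 192, 96 and 44 (-0.26, adjusted p = 0.341). In both, the overexpression libraries lay below the controls. NDUFAF8, with 625, 484, 236 and 161 counts, and NDUFAF1, an early factor with 128, 98, 49 and 29, were the 2 positive ones, at 0.09 and 0.03. Complex II, the succinate dehydrogenase that also works in the tricarboxylic acid cycle, had 4 negative values. SDHA had 20.5 and 18.5 CPM in control and 19.2 and 17.1 in overexpression (log2 fold change -0.09). SDHB, the iron-sulfur subunit, had 17.9 and 17.3 against 14.9 and 16.1 (-0.20 ± 0.155). SDHC and SDHD, the membrane anchors, were at -0.16 and -0.13, and the smallest adjusted p of the 4 was 0.525.

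Complex III lay close to 0, with a median of -0.04 that turned positive after upper quartile (0.04) or loess (0.07) scaling, with a filter at a mean of 50 counts (0.03) and without overexpression replicate 1 (0.02). CYC1, the cytochrome c1 that passes electrons to cytochrome c, had 388, 284, 154 and 82 counts, with a log2 fold change of 0.05 and an adjusted p of 0.874. UQCRFS1, the Rieske iron-sulfur protein, had 126, 93, 52 and 34 counts (0.22), and UQCRC2, a core protein, had 213, 150, 89 and 54 (0.22). In both, overexpression lay above control, with adjusted p-values of 0.610 and 0.476. UQCR11, a small accessory subunit, had 373, 252, 128 and 58 counts and was the most negative of the complex, at -0.19. UQCRQ was the most accessible promoter of this complex, with 30.4 and 30.2 CPM in control and 28.7 and 30.8 in overexpression, and its 4 counts equal those listed for its divergent neighbour GDF9.

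Complex IV and ATP synthase made up the rest. Of 14 tested complex IV promoters 8 were negative, with a median log2 fold change of -0.05, which turned to 0.03 with upper quartile scaling and ran from -0.18 without overexpression replicate 2 to 0.13 without overexpression replicate 1, with 0.01 without control replicate 1. COX5A, which sits on the matrix side, had 420, 278, 148 and 69 counts (-0.12), and COX6C had 105, 56, 38 and 27 (0.26). The 19 ATP synthase promoters had a median of -0.11, and 15 were negative. ATP5F1C, the gamma subunit of the rotor, had 509, 337, 149 and 83 counts, with 36.3 and 32.4 CPM in control against 27.8 and 28.4 in overexpression. The difference of -0.30 ± 0.123 (log2) had an adjusted p of 0.166 in the edgeR test. ATP5PF, a stalk subunit also called coupling factor 6, had 629, 485, 224 and 95 counts (-0.25, adjusted p = 0.200). ATP5F1A, the alpha subunit, had 138, 101, 33 and 27 counts (-0.43, adjusted p = 0.287). ATP5MC3 (0.14) and ATP5MJ (0.10) were positive, but ATP5MC3 was at -0.35 without overexpression replicate 1.

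**Figure D3:**
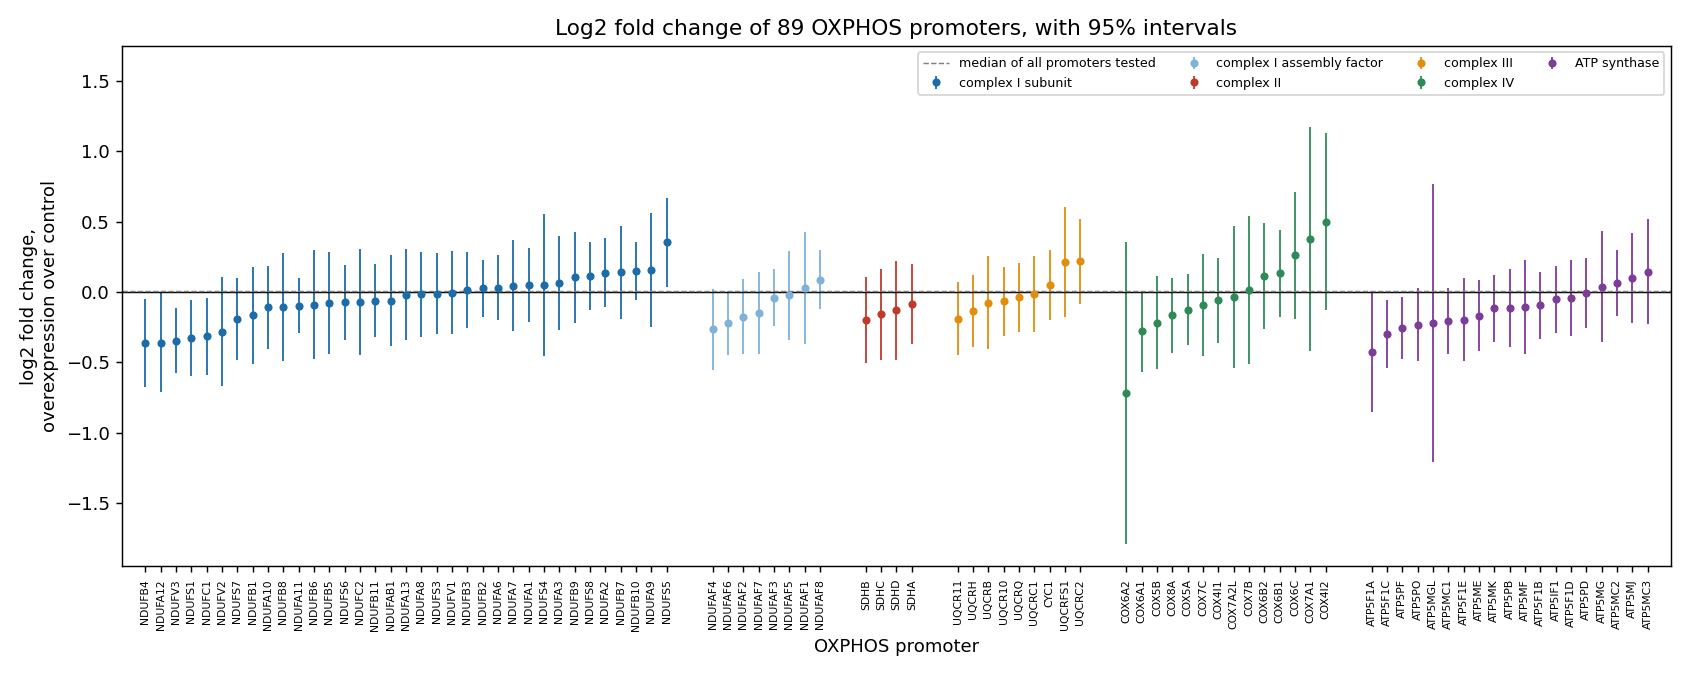
Log2 fold change (overexpression over control) of 89 of the 90 tested OXPHOS promoters, sorted within role, with bars for 95% intervals from the edgeR fit; the dashed line is the median of all promoters tested (0.0099). The intervals of 80 promoters include 0, those of 8 lie below it and that of NDUFS5 lies above it.

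Several subunits exist as a broadly used and a tissue-restricted form, and at most of these pairs the restricted promoter had few counts. COX8A was counted 339, 251, 97 and 80 times, whereas its testis form COX8C had 10, 5, 8 and 6. COX6A1 had 286, 223, 85 and 57 counts, whereas the heart and skeletal muscle form COX6A2 had 26, 13, 7 and 1. COX7B had 63, 65, 30 and 14, whereas COX7B2 had 7, 2, 3 and 1. Over both control libraries the ratio of broad to restricted counts was 39.3 for COX8A over COX8C, 14.2 for COX7B over COX7B2, 13.1 for COX6A1 over COX6A2 and 5.62 for COX4I1 over the lung form COX4I2. UQCRH and ATP5MG exceeded UQCRHL and ATP5MGL by 32.7 and 6.08, but these are near-identical copies, among which reads may be lost or split, so that their ratios are uncertain.

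Other pairs did not show this order. COX6B1 had 208, 155, 91 and 44 counts and the testis form COX6B2 had 139, 109, 58 and 33, a ratio of 1.46 over the controls. COXFA4 (NDUFA4), now assigned to complex IV, had 285, 194, 110 and 47 counts, and its hypoxia-inducible paralogue COXFA4L2 (NDUFA4L2) had 318, 249, 100 and 83, a ratio of 0.845. COX7A2 was below the muscle form COX7A1 (27, 21, 8 and 13 counts), which again rests on the start counted for COX7A2. In each of the 9 pairs the form that was higher in the summed controls was also higher in both overexpression libraries, except that COXFA4 exceeded COXFA4L2 in overexpression replicate 1. None of the tested forms was called. COX4I2 had a log2 fold change of 0.50 ± 0.322 (adjusted p = 0.429), which was 0.16 after loess scaling, 0.24 without overexpression replicate 2 and -0.29 with library totals. COX6A2 was at -0.72 ± 0.547 (adjusted p = 0.519). Both rest on few counts.

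**Figure D4:**
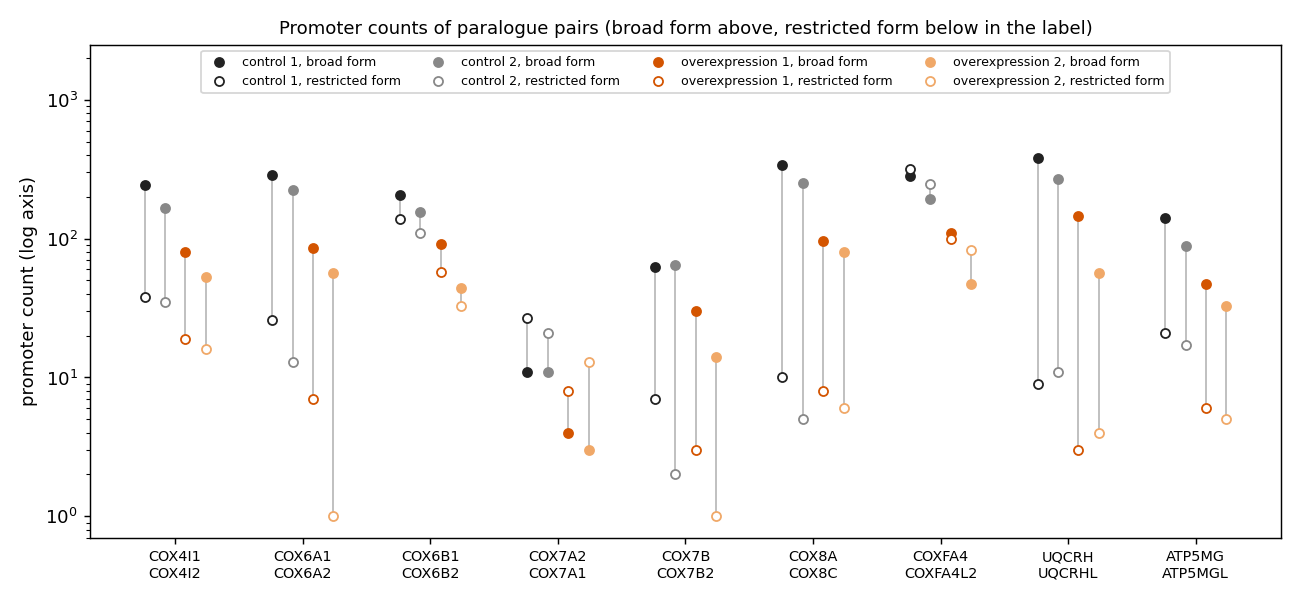
Promoter counts (log axis, not scaled for depth) of 9 paralogue pairs in each of 4 libraries, with filled points for the broadly used form and open points for the restricted form of the same library. COX8A and UQCRH lie far above their partners in every library, COX6B1 and COX6B2 lie close together, and COX7A2 lies below COX7A1.

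The partner subunits encoded by mitochondrial DNA behaved differently in this assay. All 13 protein-coding mitochondrial genes were called higher in overexpression by the edgeR test, with log2 fold changes of 1.20 to 1.26. Their windows overlap on a small circular genome, so they are close to 1 measurement. The ratio of their summed counts to the summed counts of the 95 nuclear members was 92.1 and 106.4 in control and 253.0 and 240.8 in overexpression, a mean 2.49 times higher (two-sided exact permutation p = 0.333, the smallest possible). A count on mitochondrial DNA does not report an opened promoter, since this DNA carries no nucleosomes, and the share of mitochondrial counts moved with the groups (51.9% and 55.6% against 74.7% and 73.8%). The part of mitochondrial DNA carried into the nuclei preparation was not tested.

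The other genes of the pathway were a list of 82 assembly factors, electron carriers and regulators. The edgeR test called 4 of the 82 tested (4.88%, against 2.47% of all promoters), all 4 lower. In the highest bin of abundance, where CMC2, CMC1 and ESRRA lay, 5.16% of all promoters were called. In the next lower bin, where PDSS1 lay, 16 of 5851 were called higher and 43 lower. CMC2 and CMC1 help to assemble complex IV. CMC2 had 506, 345, 131 and 64 counts (log2 fold change -0.56 ± 0.128, adjusted p = 0.00310) and CMC1 had 420, 363, 118 and 73 (-0.48 ± 0.130, adjusted p = 0.0218). ESRRA had 646, 465, 168 and 100 counts (-0.49 ± 0.116, adjusted p = 0.00540). PDSS1, which makes the side chain of coenzyme Q, had 282, 231, 75 and 47 (-0.51 ± 0.152, adjusted p = 0.0417). In all 4 both overexpression libraries lay below both controls. Leaving out 1 library changed these calls. Without overexpression replicate 1 none of the 4 was called, without control replicate 1 or overexpression replicate 2 only 1 was, and without control replicate 2 there were 2. Upper quartile scaling kept 2, CMC2 and ESRRA. None was called by DESeq2, with log2 fold changes about as large (-0.57 for CMC2, -0.47 for CMC1, -0.48 for ESRRA and -0.51 for PDSS1). None was called after loess scaling on abundance, where they were -0.44, -0.36, -0.34 and -0.45.

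Over the whole list the median log2 fold change was -0.13, with 59 of 82 negative, and 24 had an unadjusted p under 0.05 (29.3%, against 17.2% of all promoters), of which 22 were lower (26.8%, against 8.57% of all promoters and 22.3% of those in the highest bin of abundance). The 12 regulators were the most accessible group of the list (median 35.2 CPM) and 11 of them were negative, with a median of -0.26. Over all promoters in the highest bin of abundance the median was -0.12, with 77.9% negative. YY1 had 584, 390, 173 and 85 counts (-0.35, adjusted p = 0.0759), GABPA had 641, 498, 227 and 98 (-0.26, adjusted p = 0.185), and NRF1 had 280, 210, 110 and 53 (-0.03, adjusted p = 0.940). CYCS, the cytochrome c that links complexes III and IV, had 507, 402, 173 and 73 (-0.34, adjusted p = 0.103). Neither YY1, GABPA nor CYCS was called, although in each the groups did not overlap. Overexpression lay below control without overlap in 24.9% of all promoters and in 49.2% of those in the highest bin of abundance. Among members, those with ETS letters in a RefSeq window had a median of -0.13 (23 tested) and those without -0.06 (50 tested). Those with NRF1 letters had -0.09 against -0.06, and those with YY1 letters 0.0096 against -0.07. These differences were not tested. The groups also differed in control level, with which fold changes ran. Median control levels with and without the letters were 20.9 and 17.5 CPM for ETS, 16.8 and 18.6 for NRF1, and 18.1 and 18.6 for YY1.

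Many OXPHOS promoters are divergent promoters, shared with a neighbour transcribed the other way. Of 77 members with a start in the RefSeq windows, 35 (45.5%) had another gene's start within 2000 bases, against 24.1% of 19554 promoters with a start, and 34 (44.2%) had a divergent neighbour, against 18.5%. GABPA and ATP5PF are such a pair, and the regulator and the ATP synthase subunit are therefore nearly 1 measurement. ATP5F1C lies beside KIN (512, 336, 149 and 83 counts), NDUFS6 beside the mitochondrial ribosomal gene MRPL36, NDUFA7 beside the cytosolic ribosomal gene RPS28, and SDHA beside CCDC127. NDUFAF5 and ESF1 had the same counts in all 4 libraries, as did NDUFB9 and TATDN1. At these promoters the count cannot be assigned to 1 of the 2 genes. Members with a neighbouring start had more counts (median 23.8 CPM) than those without (14.7 CPM), and their median log2 fold changes were -0.06 and -0.09.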

How the data were processed

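Per the submitters' processing notes and the study's methods, the authors aligned trimmed read pairs to the CHM13 assembly with Bowtie2, filtered on pairing and mapping quality, and used Picard against duplicates. The deposited table holds raw whole-number counts per promoter, 1 row per Entrez gene. The study's promoters are windows of 2000 bases around the start; that the table counts this whole window was not stated for it, nor was a Tn5 shift. The deposited peak lists (positions, fold enrichment, −log10 p and q by MACS) were not used here, since they were not tied to genes on that build.

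Symbols came from RefSeq (GRCh38.p14) and named 28763 of 28775 rows. The methods' filterByExpr, TMM scaling and two-sided quasi-likelihood F-test were run on promoters with edgeR 4.0.16 (legacy form, R 4.3.3, no block), with Benjamini-Hochberg adjustment over 23407 promoters and calls at 0.05. Prior degrees of freedom came out infinite, so the quasi-likelihood dispersion followed abundance and was not fitted per promoter. Intervals (95%) are the log2 fold change with its standard error on the normal scale. CPM was computed here from the counts and scaled library totals, which ranged before scaling from 3734519 to 10255182. The code was tested on simulated data.

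Members and lists were chosen with earlier results of these data known. The genes named are, per role, the 2 with the smallest p in each direction and the highest and lowest in control, plus paralogue pairs, SDH genes, CYC1, called genes of the pathway list, CYCS, NRF1, GABPA and YY1; other members were named after their values were seen. Promoter sequences were not analysed here for ATP5F1B, ATP5F1D, ATP5MC3, ATP5MF, ATP5MGL, COX4I2, COX6C, COX7A1, CYC1, NDUFAF6, NDUFB5, NDUFB9, NDUFC2, NDUFS5, SDHC, UQCRB and UQCRHL. Values of 1 member and 1 marker gene are not reported here, though the member is included in all counts and medians. Alternatives covered scaling, the low-count filter, DESeq2 1.42.0, limma-voom (limma 3.58.1), a replicate block, each library left out and a threshold of 0.1. Plots used Python 3.11.15 and matplotlib 3.10.9.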

Additional observations from a re-analysis of the deposited data

How the results depend on the processing

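The number of OXPHOS promoters called stayed at 0 in 15 of 16 refits. With library totals, which include mitochondrial counts, 87 of 90 were called lower, the median was -0.86 beside -0.78 over all promoters, and 82 of the pathway list were called. At an adjusted p under 0.1 there was 1 member (NDUFV3) and 8 of the list. The member median was 0.0133 after upper quartile scaling, -0.0280 after loess scaling, -0.0258 after loess scaling without mitochondrial promoters, and -0.0020 among promoters averaging at least 50 counts. The median of all promoters moved alongside after upper quartile scaling, to 0.09. Of the pathway list, 4 were called in the reported fit, 2 with upper quartile scaling or the filter at 50, and 0 with either loess scaling or DESeq2. Leaving out 1 library gave 0 members each time, member medians of -0.09 to -0.06 and 0 to 2 of the list. Over all promoters, calls were 577, against 16319 with library totals, 54 and 33 with loess, 218 with the filter at 50, 52 with DESeq2 and 101 to 206 without 1 library.

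Same-numbered libraries did not deviate together (correlation 0.0501 over 14976 promoters), so the numbers were not taken as pairs; with the replicate block 0 members and 4 of the list were called, the member median was -0.06 and 488 promoters were called in all. With library totals, 14 positive log2 fold changes turned to called negative ones: ATP5MC3 -0.66, ATP5MG -0.75, ATP5MJ -0.70, COX6B1 -0.67, COX6B2 -0.68, COX6C -0.53, COX7B -0.79, CYC1 -0.74, NDUFAF1 -0.77, NDUFAF8 -0.69, NDUFB10 -0.65, NDUFS5 -0.44, UQCRC2 -0.57 and UQCRFS1 -0.58. Of 747 values of named promoters under the other alternatives, 54 turned sign, and in none of these was the promoter called. The cause of these moves was not tested, beyond the mitochondrial share that enters library totals. Depth limits the low promoters: COX6A2, ATP5MGL and COX7A1 had standard errors of 0.406 to 0.547.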

Other observations

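Mitochondrial ribosomal proteins, another nuclear set that serves the same organelle, had promoter values near those of the OXPHOS genes. Of 77 tested promoters, 0 were called higher and 1 lower by the edgeR test. Over all promoters 1.16% were called higher and 1.3% lower. Their median log2 fold change was -0.03, with 44 negative and 33 positive, and their median control level was 16.5 CPM. Windows of this set held ETS letters in 38.82% of 85 cases and YY1 letters in 15.29%, against 26.32% and 12.63% for OXPHOS windows, while NRF1 letters were in 11.76% against 18.95%.

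Single-library ratios show how the member median arises. Relative to control replicate 1, the median log2 ratio of members was -0.07 in overexpression replicate 1 and -0.03 in overexpression replicate 2. Relative to control replicate 2 it was -0.08 and -0.07. Between the 2 controls it was 0.0088, and between the 2 overexpression libraries 0.03. In the upper 2 bins of abundance, ratios to control replicate 1 were -0.07 and -0.11 over all promoters and -0.08 and -0.05 over members. Ratios to control replicate 2 were -0.08 and -0.12 over all promoters of these bins and -0.09 and -0.08 over members.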
